A study of Danio rerio with 12 samples.

Results

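The genes described here encode the constitutive proteasome, and they were taken by name: every gene called psma, psmb, psmc or psmd followed by a digit, without the inducible and alternative psmb8 to psmb13 genes. The rule gave 39 of the 25281 genes in the deposited values. By textbook role, 16 of them are subunits of the 20S core (9 of the alpha ring and 7 of the beta ring) and 19 are subunits of the 19S cap (7 ATPases, 9 of the lid and 3 other subunits of the base). The other 4 are not subunits of the mature complex: psmd5, psmd9 and psmd10 are chaperones that help to assemble the cap, and psmc3ip, a cofactor of meiotic recombination in mammals, has no known part in it. A gene named psmd2 was not analysed here.

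The proteasome is the barrel-shaped protease that degrades proteins tagged with ubiquitin. Its core stacks beta rings, in which psmb5, psmb6 and psmb7 carry the catalytic sites, between alpha rings that gate the entrance. The cap recognises ubiquitin chains, removes them with the deubiquitinase psmd14 and unfolds the substrate with a ring of psmc ATPases. Macrophages and microglia engulf and break down cell debris, mostly in lysosomes, and use the proteasome for their own regulatory proteins and for antigen processing.

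Zebrafish macrophages and microglia carrying mCherry were sorted from larval eyes, at most 1000 cells a sort, and their amplified RNA was sequenced in 3 libraries for each of 4 groups. In the ablated groups, the retinal pigment epithelium (RPE) had been destroyed by 10 mM metronidazole given for 24 h at 5 to 6 days post-fertilisation (dpf), and cells were taken at 4 or 2 days post-injury (dpi); the unablated groups of the same times received no drug. All larvae had been kept in 1.5X phenylthiourea, which blocks pigment, at 0.25 to 5 dpf. The titles of 2 libraries at 2 dpi give an age of 7 dpf. The labels name neither the transgene behind the ablation nor the promoter of mCherry, and no unablated larvae received metronidazole, so the drug and the ablation cannot be told apart. They do not say that the 3 libraries of a group came from separate pools of larvae, and p-values then reflect only the scatter among libraries.

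The libraries held 19791633 to 38935355 counts, of which 0.33% to 1.02% fell in the 39 genes. All 10 macrophage markers of the list used had counts in every group; mpeg1.1, which marks macrophages in this species, had 929.9 to 2000 TPM, a transcript level scaled by gene length and library depth, in the 12 libraries. RNA of other cells was present as well. Photoreceptor markers summed to 79.5, 33316 and 27.3 TPM in the 3 ablated and 3740, 259.8 and 5952 TPM in the 3 unablated libraries at 4 dpi. They summed to 11902, 1501 and 128 TPM in the ablated and 122497, 92938 and 359 TPM in the unablated libraries at 2 dpi. Unablated replicates 1 and 2 at 2 dpi therefore stood apart, with 12.2% and 9.29% of their TPM in these markers. In such bulk samples, fewer cells of a type and less RNA per cell cannot be told apart.

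The subunit genes were higher in cells from ablated eyes at both times, in core and cap alike. At 4 dpi all 35 subunits had a higher fitted level in ablated than in unablated libraries, with a median fold of 1.56 for the 20S and 1.57 for the 19S. At 2 dpi again all 35 were higher, with median folds of 1.63 for the 20S and 1.80 for the 19S. Tested one gene at a time, 3 of these differences passed at 4 dpi (psmb7 of the core, psmd3 and psmd1 of the cap), where 1.83% of all genes were called higher. At 2 dpi 0 passed, and 0% of all genes tested were called. Fitted levels were also lower at 4 than at 2 dpi for most of the 39 genes. In unablated eyes 38 of the 39 were lower and 0 passed, where 0.608% of all genes were called lower. The summed levels of core and cap overlapped between the times in these eyes. In ablated eyes all 39 genes had a lower fitted level at 4 dpi, and 8 of them passed the test. Of all genes tested, 0.918% were called lower there. With 1 library left out, 0 to 18 of the 39 were called. The fits with 0 called 0% of all genes, and that with 18 called 2.13% in either direction.

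Summed over its 16 genes, the 20S core reached 4085 ± 417 TPM in ablated and 2598 ± 275 TPM in unablated libraries at 4 dpi, and 6856 ± 562 TPM in ablated and 3473 ± 752 TPM in unablated libraries at 2 dpi (SD, n = 3 each). The 19 genes of the 19S cap summed to 2391 ± 239 TPM in ablated and 1591 ± 180 TPM in unablated libraries at 4 dpi, and to 4101 ± 545 TPM in ablated and 2028 ± 345 TPM in unablated libraries at 2 dpi. At each time the ablated libraries lay above all unablated ones for both sums. Core and cap together took 0.648% of all TPM in ablated and 0.419% in unablated libraries at 4 dpi, against 1.1% and 0.55% for ablated and unablated libraries at 2 dpi.

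**Figure D1:**
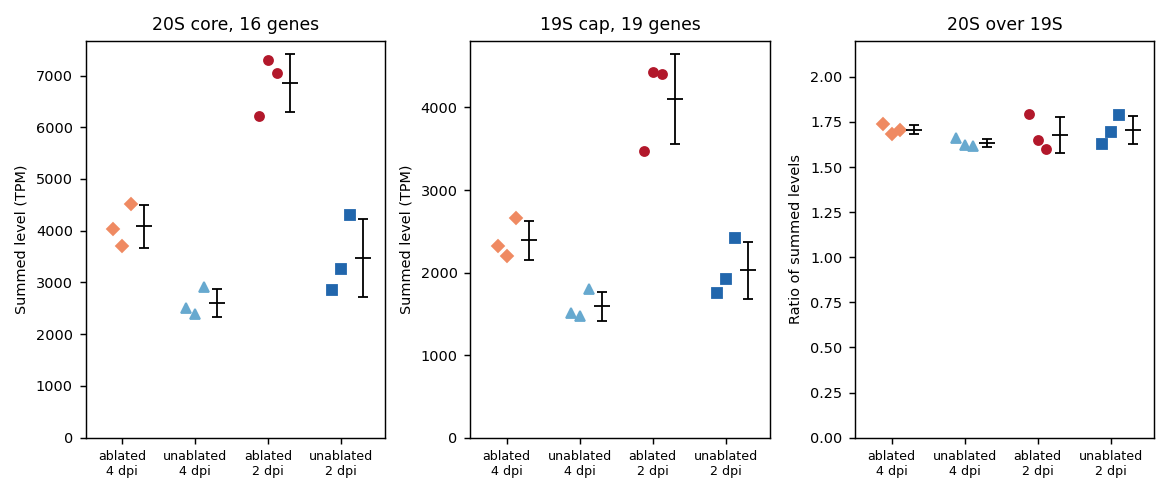
Summed TPM of the 20S genes, of the 19S genes and the ratio of the 2 sums, for each library (points) with the mean and SD of the 3 libraries of a group beside them. The sums are higher in ablated libraries at each time, while the ratio lies between 1.60 and 1.79 in all 12 libraries.

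The core and the cap were also set against each other. The ratio of summed 20S to summed 19S TPM was 1.71 ± 0.027 in ablated and 1.63 ± 0.022 in unablated libraries at 4 dpi, and 1.68 ± 0.10 in ablated and 1.70 ± 0.078 in unablated libraries at 2 dpi (SD, n = 3 each). At 4 dpi the ranges, 1.68 to 1.74 in ablated and 1.62 to 1.66 in unablated libraries, did not overlap. At 2 dpi they did. The ratio of median 20S to median 19S TPM overlapped at both times. At 4 dpi it was 1.915 to 2.073 in ablated and 1.441 to 1.917 in unablated libraries. No p is given for a sum over genes chosen with results known. On fitted values, the median log2 fold change of the 20S minus that of the 19S was -0.009 at 4 dpi and -0.143 at 2 dpi. It was thus nearer 0 at the time at which the ratios of sums were apart.

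Over core and cap together, the 35 genes had much the same order of abundance in the 4 groups. After copies of a gene were summed, the 7 alpha and 7 beta positions of the core averaged 140 TPM for psma2, the lowest, to 522 TPM for psma3, the highest, over the 12 libraries; psmb7 (486 TPM) and psmb3 (482 TPM) came next. No member is named psma7, and psma8, which in mammals is the germline copy of that subunit, stood at 291 TPM. The 16 positions of the cap ran lower, with psmd11 (50.7 TPM) and psmd7 (50.8 TPM) at the bottom and the ATPases psmc6 (271 TPM) and psmc5 (258 TPM) at the top. Neighbours in this order often lay within the spread of the libraries. The highest core position was psma3 in both groups at 4 dpi, psmb7 in ablated and psmb3 in unablated libraries at 2 dpi. The order of the 35 genes by mean TPM was nearly the same in any 2 groups, with Spearman's rho of 0.958 to 0.985 across genes, which are not independent replicates and here share libraries. No rho was computed within the core or the cap alone.

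**Figure D2:**
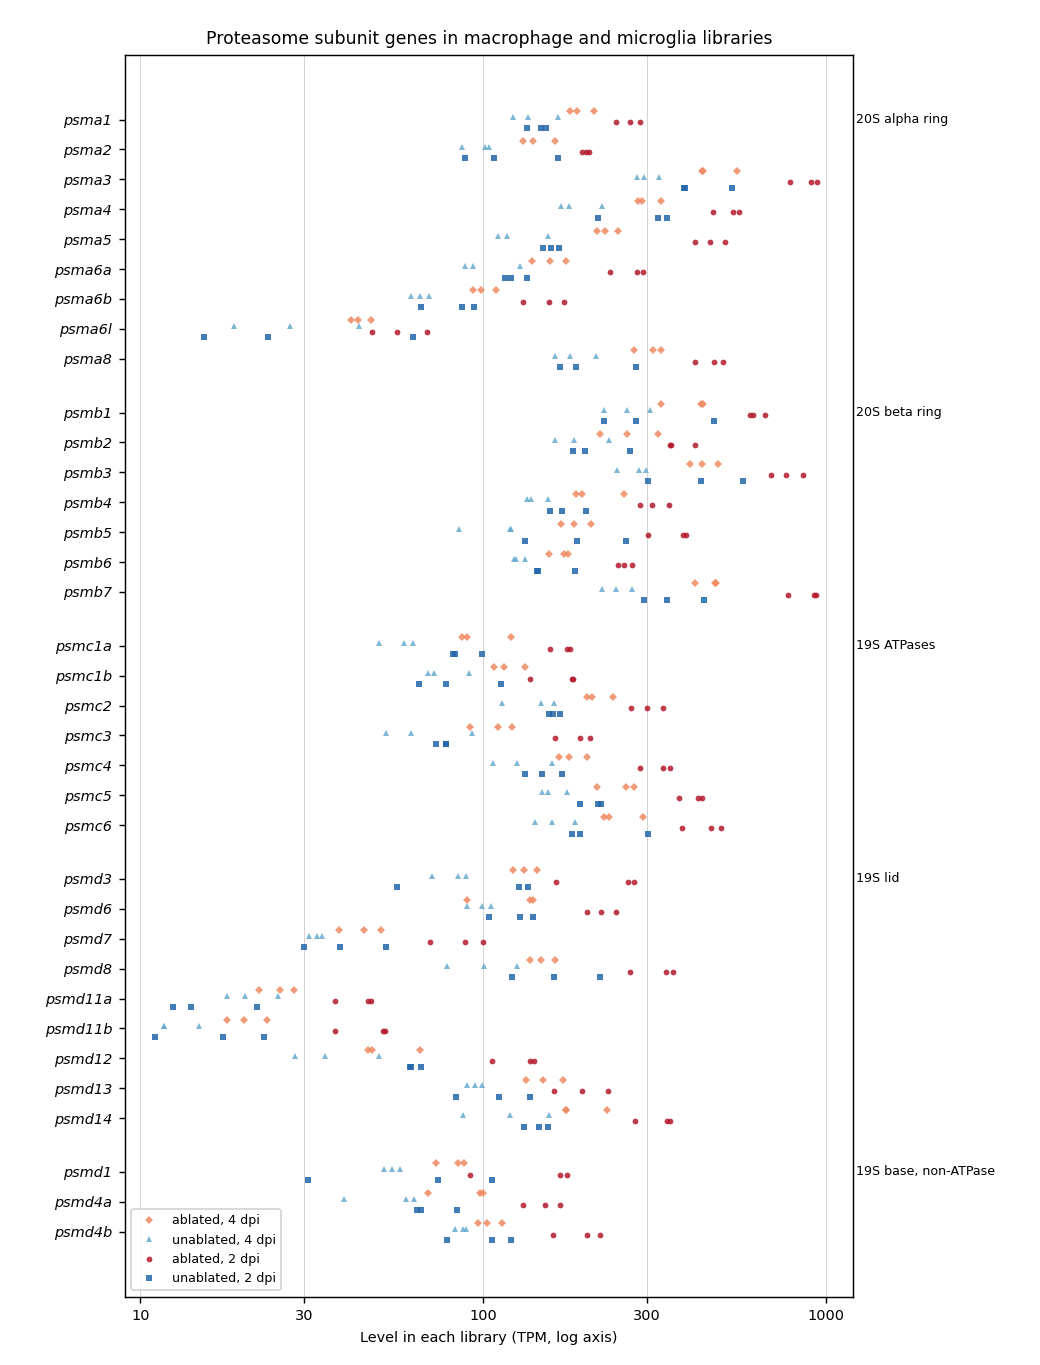
Level of each of the 35 subunit genes in each of the 12 libraries, in TPM on a log axis, grouped by role; each symbol is a library. The ablated 2 dpi group has the highest mean for all 35 genes, and psma6l, psmd11a and psmd11b are the lowest genes.

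Of the beta ring, 1 gene passed the test of ablated against unablated eyes, at 4 dpi. At 4 dpi psmb7, the trypsin-like subunit (chromosome 21, 8341774 to 8352095, plus strand, GRCz11), had 475.3, 415 and 477.2 TPM in ablated and 272.8, 222.1 and 244.7 TPM in unablated libraries. Every ablated library lay above every unablated one, and psmb7 rose by a log2 fold change of 0.92 ± 0.14 (SE; adjusted p = 0.0308, edgeR's quasi-likelihood test, Benjamini-Hochberg over 16313 genes). At 2 dpi psmb7 had 776.4, 926.4 and 939.5 TPM in ablated and 295.2, 344.4 and 442.2 TPM in unablated libraries. The groups were again apart, with a log2 fold change of 1.11 ± 0.21 that did not pass (adjusted p = 0.0896).

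The other catalytic subunits were less clear. psmb5, the chymotrypsin-like subunit and the main target of proteasome inhibitors, had 184.5, 169 and 206.6 TPM in ablated and 84.99, 119.7 and 120.9 TPM in unablated libraries at 4 dpi, with no overlap (log2 fold change 0.81 ± 0.21, adjusted p = 0.082). Its 2 dpi values were 302.5, 390 and 382.3 TPM in ablated and 132.9, 187.9 and 260.8 TPM in unablated libraries (0.71 ± 0.28, adjusted p = 0.288). psmb6, the caspase-like subunit, had the smallest fold changes of the core at both times: 155.8, 171.9 and 176.9 TPM in ablated and 122.9, 132.5 and 124.9 TPM in unablated libraries at 4 dpi (0.44 ± 0.13, adjusted p = 0.118), and a log2 fold change of 0.55 ± 0.19 at 2 dpi (adjusted p = 0.228). All 3 genes thus pointed the same way, and psmb7 alone passed, at 4 dpi. The 4 beta subunits without a catalytic site, psmb1 to psmb4, had log2 fold changes of 0.52 to 0.71 at 4 dpi and 0.61 to 0.77 at 2 dpi, none past the test. psmb2, low among the core genes at 4 dpi, had 263.2, 220 and 323.3 TPM in ablated and 183.7, 161.9 and 233 TPM in unablated libraries there, which overlapped (0.52 ± 0.22, adjusted p = 0.25).

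In the alpha ring, psma5 (chromosome 11, 36342997 to 36350993, minus strand, GRCz11) stood out. It had 227.6, 214.6 and 248.1 TPM in ablated and 110.8, 117.3 and 154.6 TPM in unablated libraries at 4 dpi, and the log2 fold change of 0.88 ± 0.18 just missed the threshold (adjusted p = 0.0509). At 2 dpi it had 415.3, 509.7 and 458.8 TPM in ablated and 157.8, 149.4 and 166.5 TPM in unablated libraries. The groups did not overlap at either time, and 1.37 ± 0.16 at 2 dpi was the highest log2 fold change of the core (adjusted p = 0.0726, which no gene of the 16048 tested went below). psma6a followed at 2 dpi with 0.95 ± 0.18 (adjusted p = 0.0872), with 235.4, 293.2 and 281.3 TPM in ablated and 120.6, 115.8 and 134.5 TPM in unablated libraries. At the lower end, psma2 had 194.2, 199.3 and 203.9 TPM in ablated and 88.34, 107.8 and 165.4 TPM in unablated libraries at 2 dpi (0.55 ± 0.27, adjusted p = 0.378), and psma1 at 4 dpi had 187.7, 179.5 and 211.2 TPM in ablated and 122.1, 134.8 and 165.4 TPM in unablated libraries (0.49 ± 0.17, adjusted p = 0.167). Both were still apart between the groups at those times.

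Of 3 psma6 copies, psma6a gave 51.6% to 56.2% of the summed level in the 4 groups, psma6b 31.9% to 34.8% and psma6l 11.9% to 14.6%. The small copy psma6l was also the most variable: it had 47.41, 56.19 and 68.44 TPM in ablated and 15.28, 23.54 and 62.49 TPM in unablated libraries at 2 dpi. The groups overlapped through unablated replicate 3, the unablated library with little photoreceptor RNA, and its log2 fold change of 0.58 ± 0.55 was not called (adjusted p = 0.592). No source used here says how reads shared by close copies were assigned, so levels of single copies are uncertain.

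Among the 19S ATPases, which unfold the substrate, all 7 were higher in ablated libraries at both times and 0 passed. Their log2 fold changes were 0.51 to 0.83 at 4 dpi, led by psmc1a, and 0.74 to 1.12 at 2 dpi, led by psmc3. psmc3 had 162, 192 and 204.6 TPM in ablated and 72.67, 77.92 and 78.06 TPM in unablated libraries at 2 dpi, with no overlap (1.12 ± 0.17, adjusted p = 0.0807). At 4 dpi it had 110.3, 91.88 and 121.6 TPM in ablated and 61.74, 51.93 and 92.95 TPM in unablated libraries, which overlapped (0.69 ± 0.25, adjusted p = 0.188). psmc1a had 89.46, 86.87 and 121 TPM in ablated and 49.62, 62.64 and 58.88 TPM in unablated libraries at 4 dpi (0.83 ± 0.21, adjusted p = 0.0812). psmc2 had the smallest ATPase fold change at 2 dpi, with 271, 336 and 300.7 TPM in ablated and 159.6, 155.8 and 167.7 TPM in unablated libraries, which were still wide apart (0.74 ± 0.16, adjusted p = 0.106).

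The lid held 1 gene called between ablated and unablated eyes. psmd3, a structural lid subunit (chromosome 19, 48049202 to 48059334, plus strand, GRCz11), had 143.6, 131.7 and 122.3 TPM in ablated and 89.2, 71.13 and 84.45 TPM in unablated libraries at 4 dpi. The groups did not overlap, and psmd3 rose by 0.73 ± 0.13 (adjusted p = 0.0409, edgeR's quasi-likelihood test). At 2 dpi it had 163.7, 265.1 and 275.9 TPM in ablated and 56.19, 127.5 and 134.9 TPM in unablated libraries; replicate 1 was low in both groups, and the fold change of 0.97 ± 0.39 did not pass (adjusted p = 0.288). psmd14, the deubiquitinase, had 174.1, 174.7 and 230.5 TPM in ablated and 119.5, 87.67 and 155.3 TPM in unablated libraries at 4 dpi (0.72 ± 0.24, adjusted p = 0.158), and 278.3, 343.2 and 351.4 TPM in ablated and 131.3, 146.1 and 155 TPM in unablated libraries at 2 dpi (1.00 ± 0.17, adjusted p = 0.0845). It was apart between the groups at both times without passing the test.

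The copies of psmd11, a lid subunit that contacts the alpha ring, did not pass the test at either time, and the difference between the copies was not tested. psmd11a had 36.89, 46.11 and 47.06 TPM in ablated and 12.45, 14.01 and 21.88 TPM in unablated libraries at 2 dpi (log2 fold change 1.25 ± 0.28, adjusted p = 0.113). At 4 dpi it had 25.52, 27.98 and 22.22 TPM in ablated and 17.85, 20.18 and 25.14 TPM in unablated libraries, and the groups overlapped (0.28 ± 0.17, adjusted p = 0.429). psmd11b had 17.89, 20.06 and 23.48 TPM in ablated and 11.71, 11.72 and 14.86 TPM in unablated libraries at 4 dpi (0.71 ± 0.18, adjusted p = 0.0819), and 1.27 ± 0.32, the highest of the cap, at 2 dpi (adjusted p = 0.133). Thus psmd11a had the smallest 19S fold change at 4 dpi and nearly the largest at 2 dpi. Its share of the summed psmd11 level was 55.2% in ablated and 62.2% in unablated libraries at 4 dpi, and 48.4% in ablated and 48.8% in unablated libraries at 2 dpi. Of the remaining lid genes, psmd6 was among the 3 lowest of the cap at both times and psmd13 at 2 dpi. psmd6 had 136.8, 89.63 and 140.1 TPM in ablated and 99.47, 105.6 and 89.59 TPM in unablated libraries at 4 dpi, overlapping through ablated replicate 2 (0.35 ± 0.23, adjusted p = 0.476), and 0.67 ± 0.19 at 2 dpi. psmd13 had 160.8 to 231.6 TPM in ablated and 83.41 to 136.7 TPM in unablated libraries at 2 dpi, with no overlap (0.65 ± 0.25, adjusted p = 0.269).

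In the base, psmd1, a large scaffold subunit (chromosome 22, 37631034 to 37716627, plus strand, GRCz11), had 87.74, 84.38 and 73.08 TPM in ablated and 57.1, 51.39 and 54.06 TPM in unablated libraries at 4 dpi. These did not overlap, and psmd1 rose by 0.62 ± 0.12 (adjusted p = 0.045, edgeR's quasi-likelihood test). At 2 dpi it had 91.41, 168 and 175.5 TPM in ablated and 30.86, 73.66 and 106.3 TPM in unablated libraries, which overlapped (0.86 ± 0.49, adjusted p = 0.435). Neither copy of the ubiquitin receptor psmd4 passed the test, and the difference between the copies was not tested. At 4 dpi psmd4a had 99.93, 68.88 and 97.8 TPM in ablated and 39.33, 62.81 and 59.46 TPM in unablated libraries (0.75 ± 0.27, adjusted p = 0.185), while psmd4b had 102.5, 96.71 and 113.5 TPM in ablated and 89.28, 82.97 and 87.11 TPM in unablated libraries (0.30 ± 0.14, adjusted p = 0.285). At 2 dpi their log2 fold changes were 0.90 ± 0.20 and 0.75 ± 0.24.

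**Figure D3:**
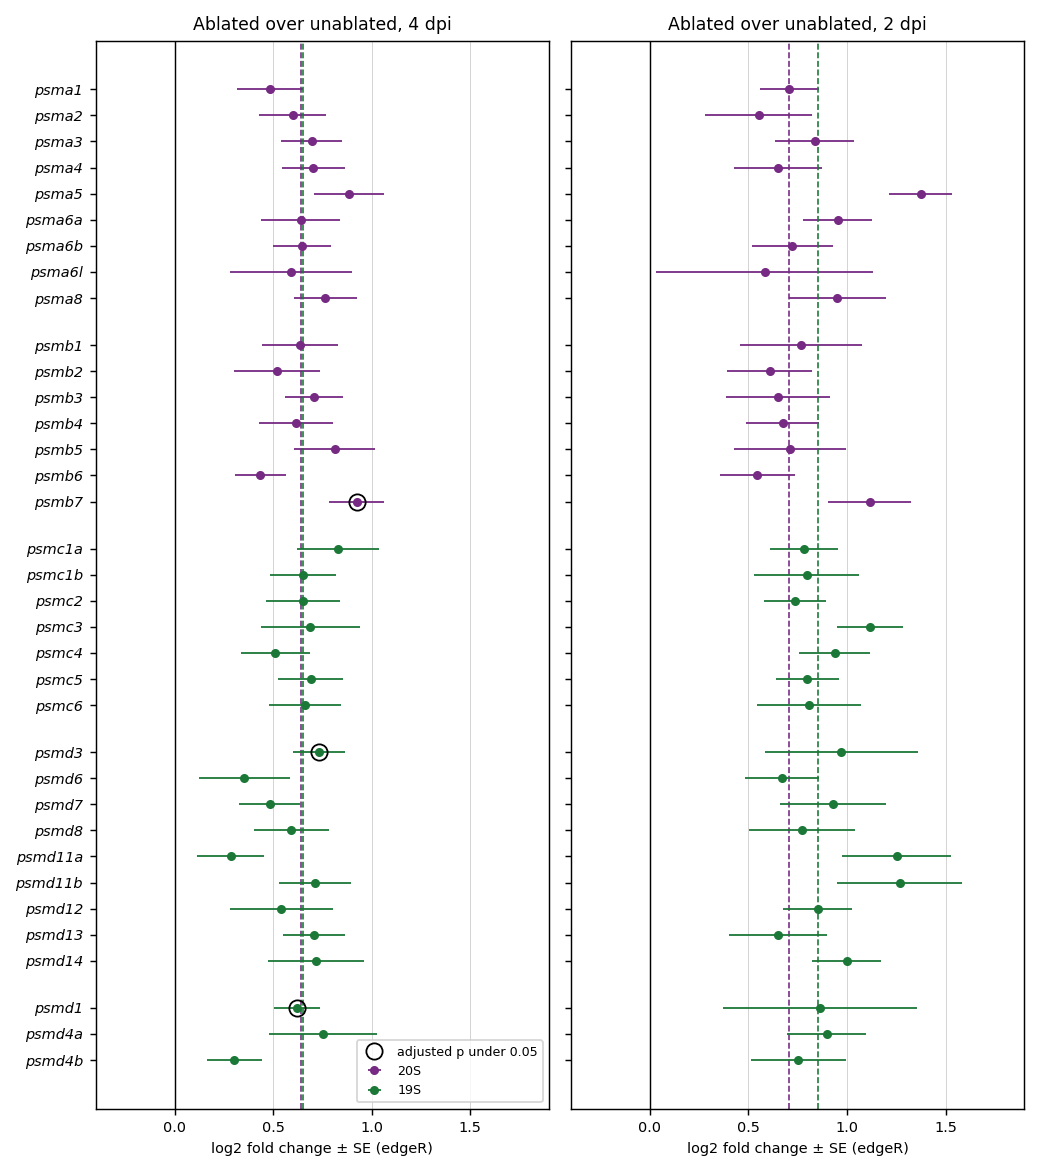
Log2 fold change of each subunit gene, ablated over unablated, with its standard error from edgeR, at 4 dpi (left) and 2 dpi (right). Dashed lines are the medians of the 20S and the 19S genes, and circles mark the 3 genes with an adjusted p under 0.05, psmb7, psmd3 and psmd1; all points lie right of 0.

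Counted against all genes, the ablation comparison at 4 dpi called 3 of the 39 genes higher, where 1.83% of the 16313 tested genes were called higher. An unadjusted p under 0.05 with a higher level was reached by 31 of the 39, against 11.1% of all genes, and 31 of the 39 did not overlap between the groups with ablated higher, against 15.6% of all genes. The median log2 fold change was 0.64 for the 20S, 0.65 for the 19S and -0.05 for all genes. Other tools called more of the 39: limma voom with quality weights called 20 (background 4.71%), DESeq2 called 29 (7.17%) and limma on log2(TPM + 1) called 18 (6.5%). edgeR on all 12 libraries called 2, both of the 20S, where 1.23% of all genes were called in either direction. There psmd3 and psmd1 did not pass. Without ablated replicate 2, which held 3.33% of its TPM in photoreceptor markers, 16 of the 39 were called higher (background 3.5%), psmb7, psmd3 and psmd1 among them. Without any other single library, 0 of the 39 were called, where 0% to 0.221% of all genes were called in either direction.

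At 2 dpi edgeR called 0 of the 39 genes, and 0% of the 16048 genes tested. There, 34 of the 39 had an unadjusted p under 0.05 and a higher level, against 12% of all genes, and 36 did not overlap with ablated higher, against 19.8%. The median log2 fold change was 0.71 for the 20S, 0.85 for the 19S and -0.12 for all genes. By other fits, all higher, limma voom with quality weights called 28 of the 39 (background 5%), DESeq2 16 (5.52%), limma on log2(TPM + 1) 18 (6.11%), and edgeR on all 12 libraries 22 (5.64%). With any 1 library of 2 dpi left out, edgeR called 0 of the 39 and 0% of all genes.

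Same-numbered libraries of 2 dpi carry 1 date in their titles, which allows a comparison within dates. All 35 subunits were higher in the ablated library in each of the 3 pairs. The median log2 ratio of the 20S was 1.04, 1.07 and 0.49 in pairs 1, 2 and 3, and that of the 19S 0.93, 1.14 and 0.75. Pair 3, with little photoreceptor RNA in either library, had the smallest ratios. Against unablated replicate 3, the ratios of the 3 ablated libraries were 0.373, 0.564 and 0.486 for the 20S and 0.504, 0.805 and 0.754 for the 19S. Medians of all tested genes in these pairs were 0.294, 0.207 and 0.000. Against unablated replicates 1 and 2 the ratios were 0.94 to 1.23 for the 20S, 0.90 to 1.30 for the 19S and 0.00 to 0.09 for all tested genes. In a 2 dpi fit with the photoreceptor level as covariate, median log2 fold changes were 0.58 for the 20S, 0.68 for the 19S and 0.20 for all genes. This covariate fit called 0 of the 39 and 0% of all genes. When unablated replicates 1 and 2 were left out of a fit over all other libraries, an alternative chosen after seeing the data, 3 of the 39 genes were called higher (psma5, psma6b and psmb7, all of the 20S), where 4.67% of 19886 genes were called higher; this share is close to that of the members. In that fit the median log2 fold change was 0.50 for the 20S and 0.68 for the 19S, and that of all genes was 0.40.

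Several other lists moved alongside. The macrophage list summed to 10288, 9283 and 9401 TPM in ablated and 7103, 7083 and 7937 TPM in unablated libraries at 4 dpi, and to 8929, 10565 and 11087 TPM in ablated and 3738, 5989 and 7935 TPM in unablated libraries at 2 dpi. Its median log2 fold change was 0.37 at 4 dpi and 0.75 at 2 dpi, beside 0.65 and 0.80 for the 35 subunits. Set over this sum, the summed subunit level was 0.618, 0.635 and 0.764 in ablated and 0.564, 0.544 and 0.593 in unablated libraries at 4 dpi. At 2 dpi it was 1.09, 1.11 and 1.03 in ablated and 1.23, 0.865 and 0.847 in unablated libraries. On this scale the groups remained apart at 4 dpi, and at 2 dpi they overlapped through unablated replicate 1. The 10 macrophage genes did not move together, so the scale depends on which of them are summed. At 4 dpi 7 were higher and 3 lower in ablated libraries, and at 2 dpi 8 were higher and 2 lower. The log2 fold change of mfap4, the highest of the list, was 1.49 at 4 dpi and 1.87 at 2 dpi, while that of mpeg1.1 was -0.26 and -0.002. Neutrophil markers, 8 of 8 found, summed to 179.9 to 259.4 TPM in ablated and 91.06 to 191.9 TPM in unablated libraries at 4 dpi and to 294.4 to 479.8 TPM in ablated and 91.13 to 120.5 TPM in unablated libraries at 2 dpi; the granule genes mpx and lyz were at or near 0 in most libraries. Epithelial markers, 10 of 10 found, summed to 615.3 to 814.5 TPM in ablated and 1973 to 3438 TPM in unablated libraries at 4 dpi, and to 332.5 to 1334 TPM in ablated and 285.4 to 4528 TPM in unablated libraries at 2 dpi. Median log2 fold changes at 4 dpi were -1.04 for inner retinal neuron, -1.06 for Müller glia and -1.90 for RPE markers. Those at 2 dpi were -3.56, -1.53 and -6.16, but the summed level of each of these lists overlapped between the groups there. At 4 dpi the sums of Müller glia and RPE markers were apart, but that of inner retinal neuron markers overlapped. It was 12.3, 500.7 and 5.88 TPM in ablated and 491.2, 93.15 and 286.9 TPM in unablated libraries. RPE markers summed to 23.5, 22.9 and 19.4 TPM in ablated and 86.1, 2311 and 7.34 TPM in unablated libraries at 2 dpi. The 4 microglia markers had medians of -0.16 at 4 dpi and 0.33 at 2 dpi, lymphocyte markers summed to at most 14.7 TPM in any library, and erythrocyte markers to at most 6.21 TPM. The part of these lists in the subunit values was not tested.

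All 17 genes found of the proliferation list, which holds genes of cell division, were higher in ablated libraries at both times, with median log2 fold changes of 3.69 at 4 dpi, where 7 were called (1.83% of all genes), and 2.40 at 2 dpi, where 0 were. With 1 library of 4 dpi left out, each of the 7 calls held in 1 to 3 of the 6 fits. Their summed level was 1057 to 1334 TPM in ablated and 103.6 to 272.5 TPM in unablated libraries at 4 dpi, and 2599 to 3583 TPM in ablated and 398.2 to 823.2 TPM in unablated libraries at 2 dpi. The summed proliferation level, like the summed subunit level, was lower at 4 than at 2 dpi in both conditions. Whether proliferation accounts for the subunit values was not tested.

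Between the times, subunit levels were lower at 4 than at 2 dpi in ablated eyes. The summed level was 4085 TPM at 4 dpi against 6856 TPM at 2 dpi for the 20S and 2391 TPM at 4 dpi against 4101 TPM at 2 dpi for the 19S, with no overlap. All 39 genes had a negative log2 fold change (median -0.71 for the 20S and -0.91 for the 19S, -0.02 for all genes), 8 passed (background 0.918%), and 37 did not overlap (background 16.4%). With 1 library left out, 0 to 18 of the 39 were called, and 0 without ablated replicate 2 or 3 of 2 dpi or any ablated replicate of 4 dpi. Each of these fits with 0 also called 0% of all genes. The fit with 18 called 2.13% of all genes in either direction. Time goes with larval age and with the date in the titles, and these cannot be told apart.

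The 8 genes called lower at 4 than at 2 dpi in ablated eyes were psma3, psma5 and psmb7 of the core, the ATPases psmc4 and psmc5, the lid genes psmd8 and psmd12, and the chaperone psmd10. psma3, the most abundant core gene, had 434.4, 439.4 and 549.2 TPM at 4 dpi and 784.2, 905.5 and 940.7 TPM at 2 dpi in ablated libraries (log2 fold change -0.96 ± 0.19, adjusted p = 0.0407, edgeR's quasi-likelihood test). psmd12 had 46.22, 47.52 and 65.5 TPM at 4 dpi and 106.4, 137.1 and 140.6 TPM at 2 dpi (-1.34 ± 0.24, adjusted p = 0.0332), the largest fall of a subunit. psmd10, which in mammals binds the ATPase psmc4 during assembly, had 25.93, 25.63 and 32.01 TPM at 4 dpi and 71.99, 103.5 and 98.11 TPM at 2 dpi (-1.79 ± 0.27, adjusted p = 0.0272). For each of these the times were wide apart. psmd8, with 136.8, 147.4 and 162.6 TPM at 4 dpi and 268.2, 341.5 and 359.2 TPM at 2 dpi, fell by 1.20 on the log2 scale. psmc4, an ATPase, had 166.6, 177.9 and 201.1 TPM at 4 dpi and 287.8, 351.2 and 336.2 TPM at 2 dpi and fell by 0.92. psmc5, of the same ring, had 261.4, 215.4 and 276.3 TPM at 4 dpi and 372.1, 436.2 and 423.8 TPM at 2 dpi and fell by 0.78, the smallest of the called falls. psma5 and psmb7, whose values are above, fell by 1.08 and 1.03.

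In unablated eyes the median differences between the times were smaller and none of the 39 genes passed. The summed level was 2598 TPM at 4 dpi against 3473 TPM at 2 dpi for the 20S and 1591 TPM at 4 dpi against 2028 TPM at 2 dpi for the 19S, and the ranges overlapped. 38 of the 39 genes had a negative log2 fold change (median -0.51 for the 20S and -0.54 for the 19S), and the exception was psmd11a at 0.18 ± 0.24. edgeR called 0 of the 39 (background 0.608%), 24 had an unadjusted p under 0.05 (background 8.21%) and 23 did not overlap (background 8.03%). DESeq2 called 18 lower (background 5.7%) and limma voom with quality weights 1 (background 1.2%). Fitted on log2(TPM + 1), limma called 0, where 5.02% of all genes were called in either direction.

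A test of the difference itself, the ablation response at 4 dpi minus that at 2 dpi, called 0 of the 39 genes and 0% of the 18079 genes tested. The fitted difference was negative for 34 of the 35 subunits, but for 22 with DESeq2's size factors and for 15 without unablated replicates 1 and 2 of 2 dpi. Its medians were -0.17 for the 20S and -0.33 for the 19S, and 0.03 and -0.14 with those size factors, so no direction of this difference is given for the core. Of the 39, 3 had an unadjusted p under 0.05, all with a negative difference (background 3.52%): psmd10 at -1.13 ± 0.38, psmd11a at -1.04 ± 0.34 and psma5 at -0.57 ± 0.24, with adjusted p of 0.811, 0.811 and 0.834. DESeq2 and the limma fits also called 0 of the 39. Across genes, the fold changes at the 2 times had a Pearson r of 0.747 in the 16 genes of the 20S and -0.03 in the 19 of the 19S; genes are not independent replicates, and these values describe only these libraries.

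**Figure D4:**
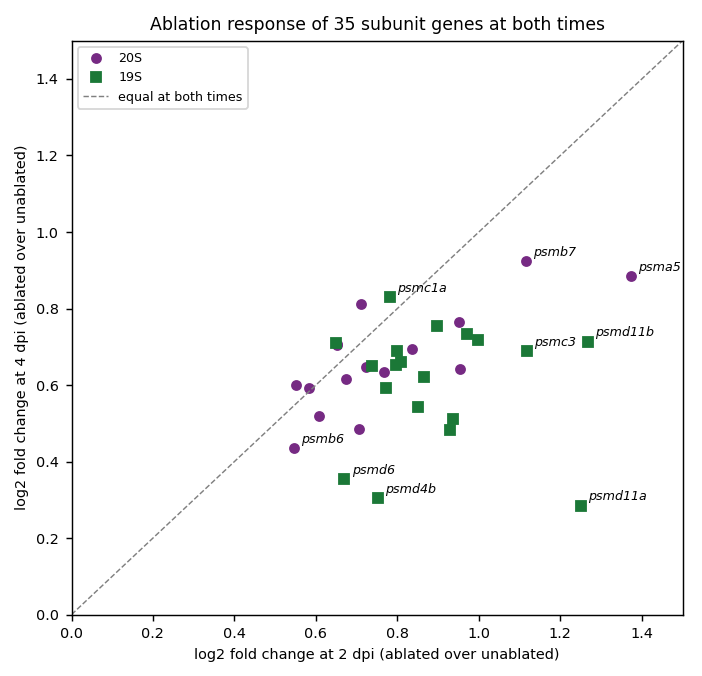
Log2 fold change, ablated over unablated, of the 35 subunit genes at 2 dpi (horizontal) and 4 dpi (vertical), one point per gene. Of the 35 genes, 28 lie below the dashed line of equal fold changes, and psmd11a lies farthest from it. The points come from a separate fit of each time. In the fit of all 12 libraries the sign of the difference depended on the scaling. There 1 of the 35 differences was positive, and 13 were with DESeq2's size factors.

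The 4 genes that are not subunits differed among themselves. psmd10 had 25.93, 25.63 and 32.01 TPM in ablated and 26.83, 17.51 and 31.91 TPM in unablated libraries at 4 dpi, with complete overlap (log2 fold change 0.17 ± 0.28, adjusted p = 0.808). At 2 dpi it had 71.99, 103.5 and 98.11 TPM in ablated and 27.32, 45.49 and 31.9 TPM in unablated libraries, which were apart (1.22 ± 0.26, adjusted p = 0.108). psmd5, a chaperone of the base, overlapped at 2 dpi (0.03 ± 0.56) and was apart at 4 dpi (1.00 ± 0.30, adjusted p = 0.12), and psmd9 had 0.61 ± 0.27 at 4 dpi and 0.58 ± 0.26 at 2 dpi. psmc3ip had 22.59, 15.28 and 20.95 TPM in ablated and 1.03, 4.83 and 3.96 TPM in unablated libraries at 4 dpi (2.60 ± 0.67, adjusted p = 0.0837), and 42.1, 48.99 and 45.73 TPM in ablated and 6.24, 9.08 and 18.15 TPM in unablated libraries at 2 dpi (1.85 ± 0.47, adjusted p = 0.135). Its groups were apart at both times with the largest fold changes of the 39 genes, and it did not pass.

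Of the genes whose products bind the cap, 6 of 6 were higher in ablated libraries at both times (medians 0.55 at 4 dpi and 0.80 at 2 dpi); the deubiquitinase usp14 had 53.77, 50.74 and 55.53 TPM in ablated and 27.35, 26.74 and 20.64 TPM in unablated libraries at 4 dpi and rose by 1.13 on the log2 scale (adjusted p = 0.0321). Assembly factors of the core, 4 tested, had medians of 0.54 at 4 dpi and 0.86 at 2 dpi, led by psmg1 (0.68 at 4 dpi and 1.44 at 2 dpi, adjusted p = 0.157 and 0.0726), while psmg3 was at 0.005 and -0.19. The ubiquitin genes had medians of 0.07 and 0.27, and the 10 shuttle and unfoldase genes 0.17 and 0.14, at 4 and 2 dpi; 0 of either list was called. Activators and the inhibitor had medians of 0.30 at 4 dpi and 0.03 at 2 dpi with 0 called; psme3, a nuclear activator, was at 0.43 and 1.27 (adjusted p = 0.363 and 0.103). Of 12 tested regulators, among them nfe2l1b and nfe2l2a, which activate proteasome genes in mammals, 6 were higher and 6 lower at each time, and 0 were called.

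**Figure D5:**
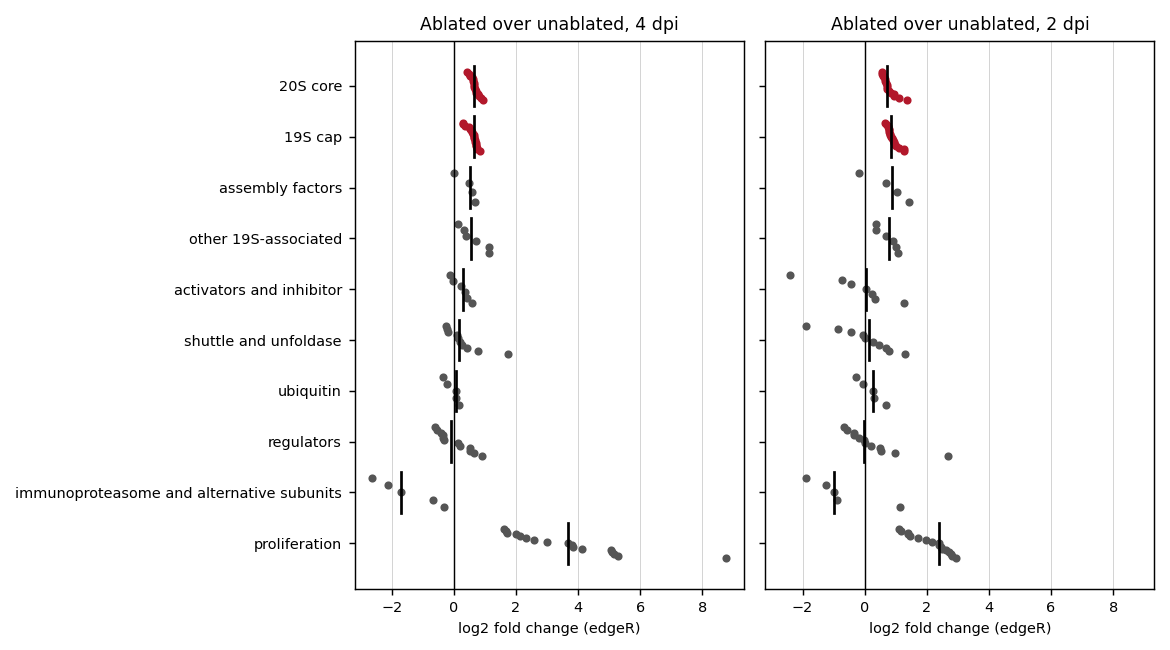
Log2 fold change, ablated over unablated, of each tested gene (points) in the 20S, the 19S and 8 related lists at 4 dpi (left) and 2 dpi (right); black bars are list medians. The immunoproteasome list is the one with a median below -0.9 at both times, and the proliferation list has the highest medians, 3.69 and 2.40.

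Most of the inducible and alternative subunits tested had a lower fitted level in ablated libraries, and 1 of them passed the test, at 4 dpi. In mammals, psmb8, psmb9 and psmb10 replace the catalytic subunits of the core in cells stimulated by interferon. Of the 5 tested, 5 were lower in ablated libraries at 4 dpi and 4 at 2 dpi, with median log2 fold changes of -1.69 and -0.98. Of all genes tested, 8588 of 16313 were lower at 4 dpi and 8694 of 16048 at 2 dpi, and 307 were called lower at 4 dpi. psmb12 had 3.16, 9.32 and 7.35 TPM in ablated and 39.91, 37.56 and 46.51 TPM in unablated libraries at 4 dpi, far apart, and fell by 2.63 on the log2 scale (adjusted p = 0.0356, edgeR's quasi-likelihood test). The calls of psmb12 and usp14 held in 1 of the 6 fits with a library left out, that without ablated replicate 2. At 2 dpi psmb12 had 5.26, 6.69 and 19.77 TPM in ablated and 9.33, 43.77 and 51.82 TPM in unablated libraries, which overlapped (-1.89, adjusted p = 0.327). psmb8a and psmb9a were at -0.66 and -2.11 at 4 dpi and -0.89 and -0.98 at 2 dpi, none past the test. The groups of psmb9a overlapped at 4 dpi. psmb13a, at -1.69 at 4 dpi and -1.25 at 2 dpi, did not pass either. psmb10 was lower at 4 dpi (-0.33) and higher at 2 dpi (1.14, adjusted p = 0.186). All of these genes were scarce beside the constitutive ones: the 7 found summed to 27.2 to 67 TPM in ablated and 86.5 to 128 TPM in unablated libraries at 4 dpi, which did not overlap, and to 43.5 to 65.2 TPM in ablated and 38.95 to 105.5 TPM in unablated libraries at 2 dpi, which did.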

How the data were processed

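Counts per gene and TPM per gene were deposited by the authors for 25281 genes in 12 libraries, in 2 tables of 6 libraries each, per the file headers; all 24 value columns were used. GRCz11 is named in the submitters' processing notes; no source used here names the aligner, the counting program or the annotation. The kit (SMART-Seq HT, Nextera XT) does not mark strand, and overlapping genes cannot be separated. Amplified reads are not independent molecules.

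Counts were tested with edgeR 4.0.16 in R 4.3.3 (quasi-likelihood, robust, TMM, default filter, Benjamini-Hochberg at 0.05 over all genes tested), in 1 fit of 6 libraries per time, and in a fit of all 12 libraries for contrasts between times and their difference. All 39 genes passed the filter. Levels are TPM; non-overlap was counted on normalised CPM. Alternatives were DESeq2 1.42.0 and its size factors, limma 3.58.1 (voom with quality weights; log2 of TPM with a pseudocount of 1 or 0.1 and a TPM of at least 1 in 3 libraries), no filter, a strict filter (at least 1 CPM, and 50 counts on average), a replicate block, a photoreceptor covariate and omission of each library. The edgeR, DESeq2 and voom steps were tested on simulated data with changes larger than that of any of the 39 genes. That test therefore does not show how well changes of the size seen in the members are found. Library pairs were compared on log2(CPM + 0.5).

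Genes named with values in each library were psmb5, psmb6, psmb7, psmd14, called members (at most 10 per comparison), and the 3 highest and 3 lowest fold changes of the 20S and 19S at each time; further ones were chosen after their values were seen. Members and lists were chosen with earlier results of these data known. Of 101 marker and 73 related symbols, 98 and 69 were found, 4 through the name tables. At 2 dpi same-numbered libraries share a title date, so the number was read as a pairing, though the labels do not say what the date marks. Correlations of deviations from group means were 0.591, 0.0347 and 0.565 in pairs 1, 2 and 3. That of pair 2 was no higher than the 0.041 of ablated replicate 2 with unablated replicate 3. At 4 dpi all libraries share 1 date and the correlations were -0.163, -0.400 and -0.138, so the number was not read as a pairing.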

Additional observations from a re-analysis of the deposited data

How the results depend on the processing

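With 3 libraries a group and very unequal RNA of other cells, the number of the 39 genes called depended on the tool, while at least 37 of the 39 were higher in ablated libraries at each time in every fit run; the causes were not tested. Shares in parentheses are of all genes called in either direction by the same fit. For fits with 1 library left out, counts and shares are each a range over these fits. The ends of the 2 ranges need not come from the same fit. At 4 dpi 3 were called (3.71%), 6 with DESeq2's size factors (3.92%), 11 with the strict filter (5.89%), 29 with DESeq2 (14.2%), 20 with voom (9.52%), 18 with limma on log2 of TPM with either pseudocount (12.2% and 9.96%), 0 with the replicate block (0%), and 0 to 16 with 1 library left out (0% to 8.32%). Without a filter 2 were called (2.65%), with all 12 libraries 2 (1.23%) and with the photoreceptor covariate 3 (5.03%). Of the 19S, 0 were called with all 12 libraries. At 2 dpi 0 were called (0%), 16 with DESeq2 (9.26%), 28 with voom (6.08%), 18 with either TPM pseudocount (6.39% and 5.67%), 22 with all 12 libraries (6.32%), and 3 without unablated replicates 1 and 2, chosen after seeing the data (6.6%). The replicate block, which was read as a pairing there, gave 0. So did DESeq2's size factors, no filter, the strict filter, the photoreceptor covariate and each omission of 1 library (0% in each). DESeq2's size factors moved the median of all genes at 2 dpi to -0.28, against -0.12, and the TPM fits to 0.18 and 0.23; the medians of the 20S and the 19S lay above it in each of these fits. For 4 against 2 dpi in ablated eyes 8 were called (1.29%), 5 with size factors (1.03%), 4 without a filter (0.49%), 15 with the strict filter (2.6%), 26 with DESeq2 (6.91%), 32 with voom (11.1%), 16 and 13 on TPM with pseudocounts 1 and 0.1 (2.94% and 2.26%), 2 with the replicate block (0.122%), and 0 to 18 with 1 library left out (0% to 2.4%). In unablated eyes 0 were called (0.868%), 8 with size factors (1.55%), 18 with DESeq2 (7.79%), 1 with voom (2.11%), 0 to 2 with 1 library left out (0.0737% to 2.6%), and 9 without unablated replicates 1 and 2 (2.55%). The number called was also 0 without a filter (0.594%), with the strict filter (1.9%) and with the replicate block (0%). It was 0 on TPM with pseudocounts 1 and 0.1 too (5.02% and 4.85%). The difference of the responses called 0 in each. The 20S minus 19S median at 4 dpi, -0.009, was 0.020 with the photoreceptor covariate and -0.002 to 0.052 with 1 library left out, so its sign was not fixed; at 2 dpi it was negative in each fit. The mean ratio of 20S to 19S, 1.68, was 1.08 on CPM and 1.93 without paralog copies. psma6l at 2 dpi turned to -0.25 without unablated replicates 1 and 2, and psmd10 at 4 dpi, 0.17, was -0.013 to 0.412 with 1 library left out.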
